A study of Sus scrofa with 6 samples.

Results

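EPCAM is the epithelial cell adhesion molecule, and 150 probe sets of 130 genes were taken as the transcripts whose signal followed it most closely from sow to sow in preovulatory pig follicles. A probe set is a group of short probes on the array that measures 1 transcript. The 150 were chosen by their values. They had 1 gene symbol, a signal above 50 on 3 or more of the 6 arrays and a log2 range of 1 or more, and of the 3472 probe sets that met these terms they had the highest Pearson r to the 1 EPCAM probe set over the 6 arrays. The choice left out EPCAM itself and the 7 genes CFAP126, OVGP1, RIBC2, ROPN1L, SPA17, UBXN10 and WFDC2. The array carried 24123 probe sets in all.

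The follicles came from 3 Chinese Erhualian sows and 3 Large White sows, multiparous and cycling, with 1 array of whole-follicle RNA per sow. The Chinese Erhualian belong to the Chinese Taihu group, the name used in the study, which set a breed of large litters against a Western breed. Every sow of both breeds was given 1000 IU of PMSG, a gonadotropin that makes follicles grow, and after 80 h 500 IU of hCG, which stands in for the LH surge. The sows were killed 30 to 38 h later. The Chinese Erhualian came from one farm and the Large White from another, so breed cannot be told apart from farm. The whole follicles hold granulosa, theca, vessel and other cells, in which more cells of a type and more RNA per cell cannot be told apart.

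EPCAM is a surface protein of most simple epithelia, where it takes part in adhesion between neighbouring cells together with E-cadherin, claudins and keratins. The lining of the oviduct and fimbria is such an epithelium, with ciliated and secretory cells. Granulosa and theca cells of a large follicle are known instead for steroid synthesis, and caveolae, the small pits of the cell membrane built by caveolins and cavins, are abundant in endothelium, smooth muscle and connective tissue.

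Chinese Erhualian sow 1 stood apart from the other sows. Over the 19196 probe sets tested, its log2 signals correlated at 0.834 to 0.887 with those of the other 5 sows, while those 5 correlated at 0.907 to 0.967 with each other. The labelled tissue was checked against steroid synthesis genes. STAR, the carrier of cholesterol to the start of steroid synthesis, measured 27.0 in this sow, against 982 to 12624 in the other 5, and HSD3B1, which makes progesterone, had 90.6 there and 3536 to 10898 elsewhere. The 18 genes of that list had a median log2 signal 1.44 below their own 6-sow medians in this sow, and the 20 granulosa genes one 0.93 below. The main results that rest on this sow are given with and without it.

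EPCAM had signals of 7761, 768 and 727 in Chinese Erhualian sows 1 to 3, against 140.4, 489 and 1653 in Large White sows 1 to 3. The highest signal was 55.3 times the lowest. The order of the sows was Chinese Erhualian 1, Large White 3, Chinese Erhualian 2 and 3, Large White 2 and Large White 1, so the breeds overlapped, with 1 high sow in each. Chinese Erhualian sow 2 and sow 3 differed by little. Without Chinese Erhualian sow 1 the signal still spanned 11.8-fold.

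The r of the 150 probe sets to EPCAM ran down from 0.987 to 0.893, with a median of 0.931, over n = 6 sows. These r chose the set and are given as a description. The median r of all candidates was -0.04. At the lower end the last 3 taken were ISYNA1, IL13RA1 and CDKN2AIP, all at 0.893, and the first 3 not taken were IFIT1, PBLD and BROX, all at 0.892, so no gap in r marks the edge. The 7 other genes left out of the choice had r of 0.801 to 0.885 and would not have been among the 150. By the same rule, sets were taken that follow SQLE, an enzyme of cholesterol synthesis, and TYROBP, a signalling adaptor of leukocytes. They shared 0 of their 150 probe sets with the EPCAM set, and 0 of either were highest in Chinese Erhualian sow 1. SQLE and TYROBP themselves had r of -0.54 and -0.31 to EPCAM. No probe set can follow EPCAM and either of them this closely, so the 0 shared was fixed in advance. Nothing is read from either count.

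All 150 probe sets were highest in Chinese Erhualian sow 1, where 23.5% of all tested probe sets had their highest signal. Large White sow 1 was the lowest in 141 of them (94.0%), against 18.9% of all tested probe sets. The second highest was Large White sow 3 in 99, Chinese Erhualian sow 3 in 29, Chinese Erhualian sow 2 in 16 and Large White sow 2 in 6. The exact order of EPCAM over all 6 sows was met by 15 of the 150 and by 0.250% of tested probe sets. The choice by r to EPCAM over the same arrays favours each of these, so the shares are a description and nothing is read from them. Each probe set's log2 signal was also set against its own median over the 6 sows. The median of the 150 was then 1.04, -0.09 and 0.07 in Chinese Erhualian sows 1 to 3, against -0.60, -0.17 and 0.25 in Large White sows 1 to 3, while over all tested probe sets it lay within 0.01 of 0 in every sow. The heat map of the 150 shows 1 high sow, 1 low sow and 4 sows close together.

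**Figure D1:**
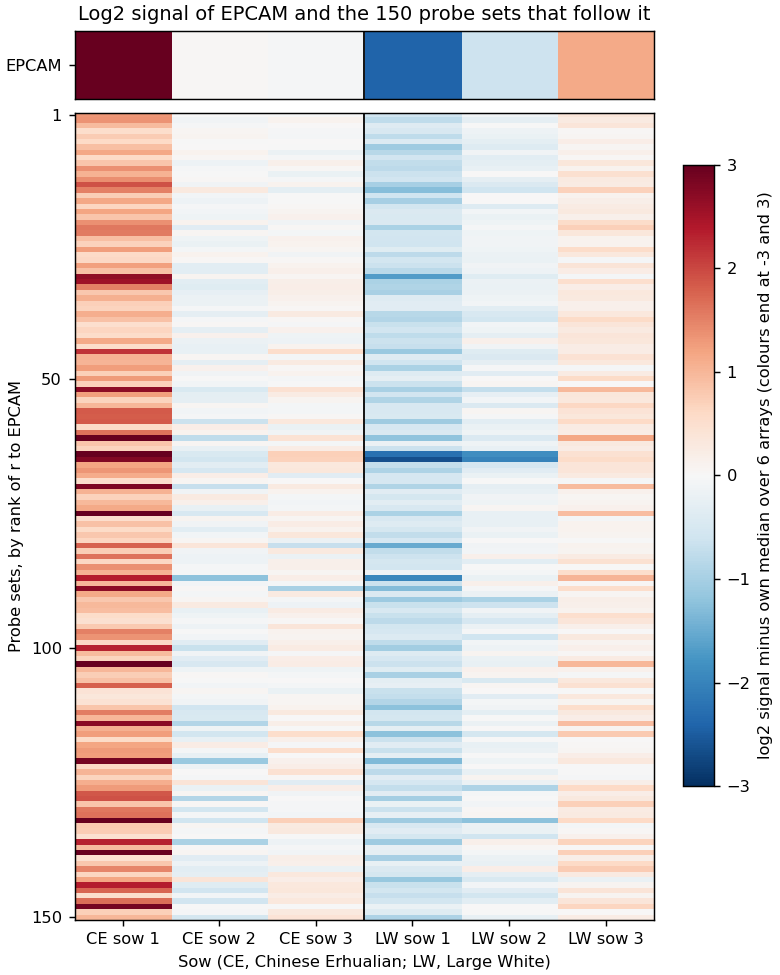
Heat map of log2 signal minus the probe set's own median over the 6 arrays (colour) for EPCAM (top strip) and for the 150 probe sets in order of r to EPCAM (rows), by sow (columns, Chinese Erhualian left and Large White right). All 150 rows are highest in Chinese Erhualian sow 1 and 141 are lowest in Large White sow 1.

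Most of the 150 moved far less than EPCAM did. The log2 range was 1.62 in the median and 1.003 to 5.55 in all, against 5.79 for EPCAM, and 102 of the 150 had a range under 2. Per unit of log2 EPCAM the median probe set changed by 0.28 log2 units. The signal in Chinese Erhualian sow 1 was 2.18 times the median of the other 5 sows for the median probe set and 10.7 times for EPCAM. In 62 probe sets this ratio was under 2, and in 7 it was over 10 (2 each of ALDH1A1 and SH3BGRL2 and 1 each of NDUFS3, MLF1 and PPL). Signals were above 50, the level of the filter, in all 6 sows for 137 of the 150. Whether a signal a little above 50 exceeds the background was not tested.

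The closest follower was FBXO3, the substrate-binding part of a ubiquitin ligase (r = 0.987). It had signals of 753, 300.3 and 297 in Chinese Erhualian sows 1 to 3, against 197, 277 and 384 in Large White sows 1 to 3. All 6 sows stood in the order of EPCAM, and the breeds overlapped. SORBS2, an adaptor protein of stress fibres and cell adhesions (r = 0.984), had 185, 67.6 and 78.0 in Chinese Erhualian sows against 42.5, 60.1 and 87.3 in Large White sows. JAK1, a kinase of cytokine and interferon receptors, had 381, 193 and 199 in Chinese Erhualian sows against 152, 197 and 257 in Large White sows. Both spanned less than EPCAM, and in JAK1 the 4 middle sows lay close together. The rest of the 10 with the highest r were UFSP2, a protease of the ubiquitin-like protein UFM1, the zinc finger factor HIVEP2, FILIP1, which binds filamin, the glycosyltransferase GLT8D2, the WNT receptor FZD6, OCIAD1 and CIR1, a corepressor of Notch target genes. Their r lay between 0.976 and 0.981. None of these 10 genes but SORBS2 is in any of the epithelial or ciliary gene lists that were used.

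ALDH1A1, which makes retinoic acid from retinal, had the widest range. Its brighter probe set had signals of 6972, 691 and 1635 in Chinese Erhualian sows 1 to 3, against 163, 254 and 1477 in Large White sows 1 to 3, and the other had 3353, 245 and 550.1 against 71.3, 93.1 and 464. Both probe sets gave the same order, with Chinese Erhualian sow 3 and Large White sow 3 well above the remaining low sows. PPL, periplakin, which ties desmosomes to keratin filaments, had 2029.7, 115 and 286 in Chinese Erhualian sows against 83.0, 74.1 and 262 in Large White sows. MLF1, a protein known from motile cilia as well as from leukaemia, had 2044, 97.6 and 157.9 in Chinese Erhualian sows against 86.9, 116.4 and 273 in Large White sows. In PPL and MLF1 a single sow, Chinese Erhualian sow 1, stood out, at 7.10 and 7.498 times the next highest.

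ENPP2, autotaxin, the enzyme that makes lysophosphatidic acid, had 5089, 806 and 405 in Chinese Erhualian sows against 324, 780 and 1135 in Large White sows. ASPN, asporin, a small proteoglycan of connective tissue, had 452, 76.3 and 74.9 in Chinese Erhualian sows against 22.3, 56.2 and 68.7 in Large White sows. In ASPN the breeds did not overlap, by a small margin between the middle sows. DDO, D-aspartate oxidase, had 266, 22.0 and 59.6 against 13.4, 45.1 and 105, with values near or under 50 in several sows. FAM107B, SH3BGRL2 and NDUFS3 complete the genes of widest range, at log2 4.21, 5.08 and 4.92.

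Among the brightest followers was CAV1, caveolin 1, the main coat protein of caveolae, with 3 probe sets among the 150. Its brightest had signals of 5857, 2310.2 and 2179 in Chinese Erhualian sows 1 to 3, against 1496, 1870.2 and 2693 in Large White sows 1 to 3. The order was that of EPCAM in all 6 sows. CAV2, its partner in the coat, had 1127, 397 and 371 in Chinese Erhualian sows against 262, 348 and 484 in Large White sows. That order again matched EPCAM. CAVIN2, a coat adaptor, had 1420.3, 764 and 1052 in Chinese Erhualian sows against 571, 766 and 1047 in Large White sows. Of the 4 caveola genes tested, 3 were thus among the followers (r of 0.939 to 0.974 for the brightest probe sets), and PACSIN2, which bends the neck of caveolae, was not (r = 0.47). This list was drawn up after the values were seen. In the RefSeq gene order of the pig, CAV1 and CAV2 neighbour each other, as do CAV2 and TES, a LIM protein of focal adhesions that is also among the 150, and no others of the 126 genes with an entry there were adjacent.

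**Figure D2:**
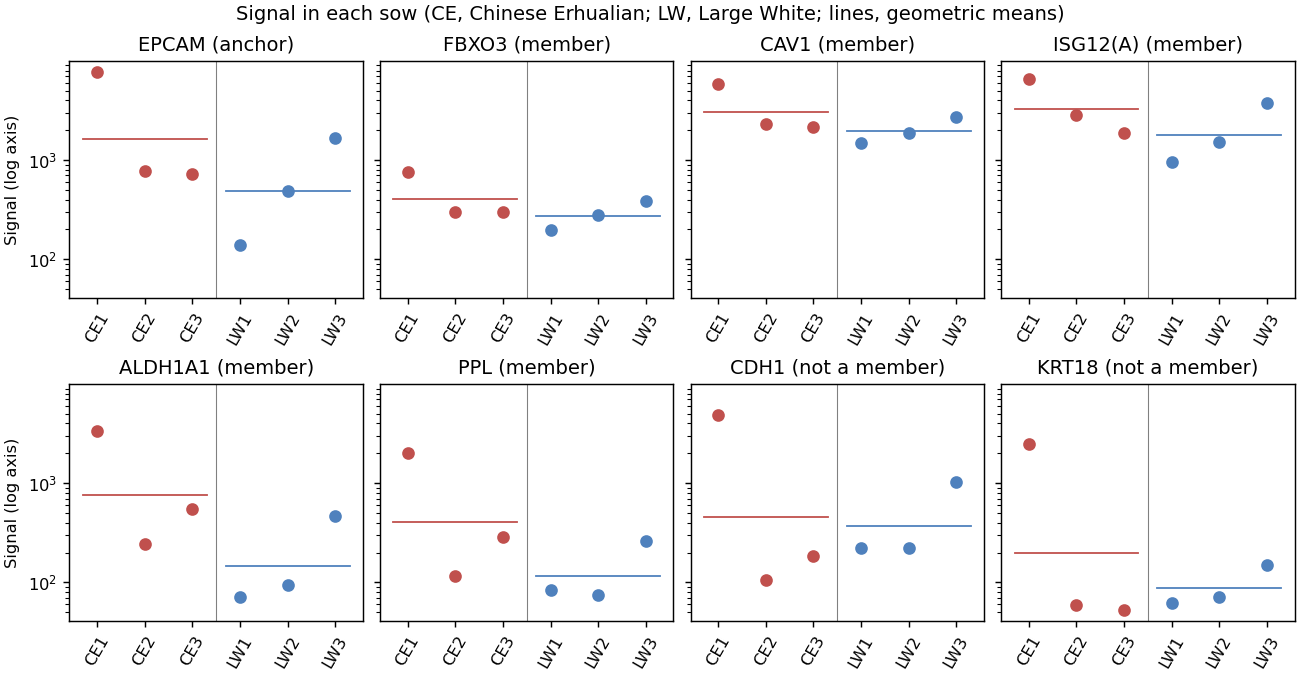
Signal on a log axis in each sow (Chinese Erhualian 1 to 3 left, Large White 1 to 3 right) for EPCAM, 5 genes that follow it and 2 epithelial genes that are not among the 150, with lines at the geometric mean of each breed. For ALDH1A1 and CAV1 the probe set with the highest r is shown. FBXO3 and CAV1 run through the sows in the order of EPCAM in small steps, while CDH1 and KRT18 are highest by far in Chinese Erhualian sow 1, with Large White sow 3 second, at 1034 in CDH1 and 150.6 in KRT18.

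Genes of interferon signalling and response were also found among the 150. The list used holds interferon receptors and their kinases, such as IFNGR1 and JAK1, beside genes that interferon induces. Of 38 tested genes of a list drawn up after the values were seen, 9 (23.7%) had a probe set among the 150 (MX1, ISG12(A), IFIT2, USP18, JAK1, IFNGR1, PARP9, PLSCR1 and UBD). Of all 6319 tested genes 2.06% had one, and the counts of the other gene lists are to be read against the same share. A log2 range of 1 or more, which the choice required, was met by 29 of the 38 in the brightest probe set, against 2532 of all 6319. JAK1 is counted by its dimmer probe set, and its brightest had an r of 0.52. ISG12(A), a small interferon-induced membrane protein, had signals of 6580.4, 2849 and 1893 in Chinese Erhualian sows 1 to 3, against 965, 1535 and 3763 in Large White sows 1 to 3. IFIT2, which binds foreign RNA, had 699.7, 132 and 224 in Chinese Erhualian sows against 71.3, 122 and 183 in Large White sows. USP18, which takes ISG15 off proteins, had 1111, 515 and 478 in Chinese Erhualian sows against 241, 456 and 456 in Large White sows. Large White sow 1 was the lowest in each of the 3 genes, and in ISG12(A) Large White sow 3 was clearly second. The median r to EPCAM over the 38 genes was 0.81, against -0.10 over all tested genes, and 25 of the 38 were highest in Chinese Erhualian sow 1 against 23.6% of all tested genes. Without that sow the median r of the 38 was 0.59, and 14 of them were highest in Large White sow 3, the next in EPCAM, where 17.0% of all tested probe sets then were.

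The label was checked against epithelial marker genes, each taken by its brightest probe set for levels and r. Of the 50 tested genes of 3 such lists 4 (8%) had a probe set among the 150, against 2.06% of all tested genes, and the other 46 had none. Of 25 junction genes tested 2 were (PPL and CXADR, a receptor of tight junctions), of 14 keratin and epithelial cytoskeleton genes 1 was (ANXA4, a calcium-dependent membrane-binding protein), and of 11 epithelial transcription factor genes 1 was (MEIS1, a homeobox factor). The log2 range of 1 or more that the choice required was met by 19, 12 and 6 genes of these lists, against 2532 of all 6319 tested genes. Part of the excess over 2.06% may lie in that term. CXADR had 415, 218 and 198 in Chinese Erhualian sows 1 to 3, against 149.2, 154 and 321 in Large White sows 1 to 3. ANXA4 had 2218, 889 and 979 against 495, 994 and 1110, and MEIS1 had 3515, 312 and 602 against 267, 417 and 969. CXADR kept the order of EPCAM in all 6 sows.

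CDH1, CLDN7 and KRT18, which are not among the 150, were far higher in Chinese Erhualian sow 1 than elsewhere, with Large White sow 3 second. CDH1, E-cadherin, had 4834, 106 and 185 in Chinese Erhualian sows 1 to 3, against 221, 219.8 and 1034 in Large White sows 1 to 3 (r = 0.82). CLDN7, a claudin of tight junctions, had 4118, 43.5 and 73.6 in Chinese Erhualian sows against 109, 80.2 and 373 in Large White sows (r = 0.81). KRT18, a keratin of simple epithelia, had 2475, 59.5 and 52.4 against 62.4, 71.3 and 150.6 (r = 0.86). Of the 50 genes of these 3 lists, 42 were highest in Chinese Erhualian sow 1, against 23.6% of all tested genes. Without that sow 22 were highest in Large White sow 3, where 17.0% of all tested probe sets then were. The median junction gene was 4.40 times higher in Chinese Erhualian sow 1 than the median of the other 5 sows, while the choice gave 2.18 times for the 150. Over the other 5 sows the median r to EPCAM was 0.31 for the junction genes, 0.34 for the keratin genes and -0.12 for the transcription factors. The 150 are called here by what chose them, the EPCAM signal, and by no cell type. The plot of r against the excess in Chinese Erhualian sow 1 shows the listed genes above most of the 150 and to their left.

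**Figure D3:**
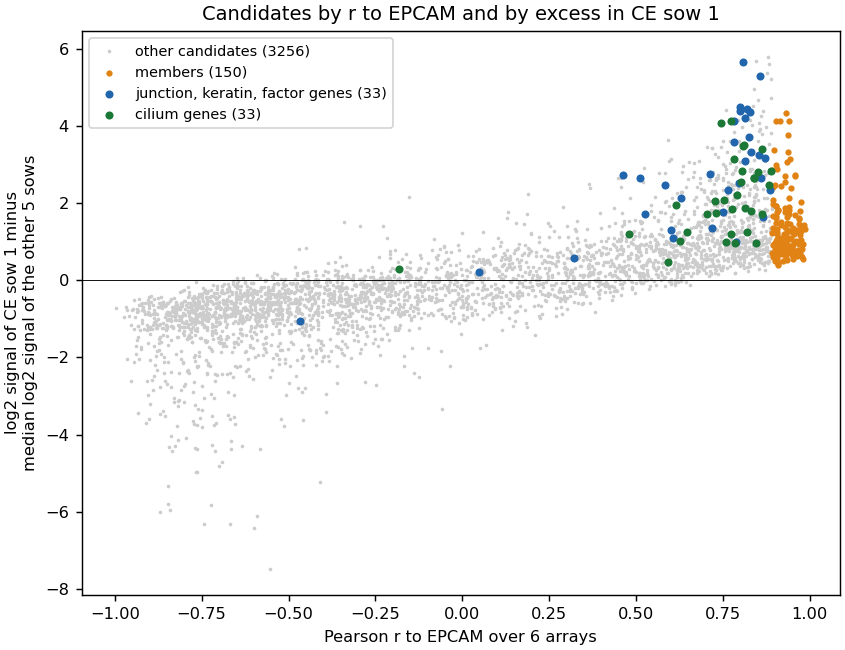
Pearson r to EPCAM over the 6 arrays (horizontal) against log2 signal of Chinese Erhualian sow 1 minus the median of the other 5 sows (vertical) for the 3472 candidate probe sets (dots). In colour are the 150 members, and 33 junction, keratin and factor genes and 33 cilium genes whose brightest probe set is not a member. CFAP20, a member by a dimmer probe set, is also among these cilium genes. Members fill the edge at r of 0.893 and above, mostly at an excess under 2, and many listed genes lie at a larger excess with a lower r.

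Genes of motile cilia were looked up in the same way. Of 30 tested, 4 were among the 150 (CFAP20, MLF1, LRRC6 and LRRC49), and of 16 genes of transport along the cilium 1 was (IFT46). LRRC6, needed to assemble dynein arms, had 264, 40.2 and 64.1 in Chinese Erhualian sows 1 to 3, against 32.3, 48.96 and 54.1 in Large White sows 1 to 3, at 64.1 or less in all but 1 sow. LRRC49, a part of the enzyme complex that adds glutamate chains to tubulin, had 259, 33.0 and 62.1 against 25.6, 47.4 and 58.4. CFAP20, a protein of the ciliary axoneme, had 1048, 297 and 265 against 226, 275 and 328 in the probe set that is among the 150. Its brightest probe set, which is not, had 3515, 1016 and 924 against 1014, 1002 and 1205 (r = 0.83). Of the 46 ciliary genes 40 were highest in Chinese Erhualian sow 1, against 23.6% of all tested genes. Without that sow 24 were highest in Large White sow 3, where 17.0% of all tested probe sets then were. The median r to EPCAM over the 30 motile cilium genes was 0.80 over 6 sows and 0.25 over the other 5.

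IFT46 carries a limit of its own. Its signals of 2339.8, 487 and 903 in Chinese Erhualian sows and 495.5, 589 and 938 in Large White sows differed by at most 6.89% from those of the probe set assigned to MEIS2, a homeobox factor, which had 2326, 466 and 869 against 475, 551 and 910.1. No other pair of the 150 with different symbols lay within 0.1 log2 units in every sow. Whether both probe sets measure 1 transcript was not tested.

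Genes of a secretory epithelium gave 3 of 40 tested (ALDH1A1, SORBS2 and PLAC8). PLAC8 had 1523, 576 and 274 in Chinese Erhualian sows 1 to 3, against 157, 417 and 477 in Large White sows 1 to 3. Of the ovarian surface epithelium list 1 of 9 was a member (CAV1), and of theca and smooth muscle 1 of 12 (TPM1, a tropomyosin of actin filaments). The 20 granulosa, 18 steroid synthesis, 12 endothelial, 13 leukocyte, 4 red cell, 10 stromal and 5 oocyte genes tested gave 0. The granulosa genes had a median r to EPCAM of -0.36 and the steroid synthesis genes of -0.69. In each list 2 genes were highest in Chinese Erhualian sow 1, against 23.6% of all tested genes. Over the other 5 sows the median r were 0.08 and -0.45, so that of the granulosa genes changed its sign. Whether these cell types take part in the pattern of the 150 was not tested.

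Other bright followers had varied roles. They were MDK, midkine, a heparin-binding growth factor with 2 probe sets among the 150, the vesicle protein SYPL1, the MHC class I gene SLA-3, TSPYL1, TUSC3, a subunit of the complex that adds sugar chains to new proteins, AGA, a lysosomal enzyme, and ISYNA1, which makes inositol phosphate. MDK had 6301, 2462 and 2755 in Chinese Erhualian sows 1 to 3, against 2045, 2960.5 and 3144 in Large White sows 1 to 3. ISYNA1 had 7504, 1018 and 1022 in Chinese Erhualian sows against 897, 1034 and 1611 in Large White sows. Chinese Erhualian sow 1 was at 2.004 times the next sow in MDK and at 4.66 times in ISYNA1. A long non-coding RNA, LOC102164640, was also among the 10 brightest, at 3848, 2175 and 2286 against 1515, 2327 and 2484. SLA-3 belongs to a family of near-identical genes, and its signal may hold RNA of other members.

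Several genes had more than 1 probe set. Within the 150, 18 genes had 2 or more probe sets, 38 in all, and the 22 pairs of the same gene correlated at 0.926 to 0.997. Both of a pair were chosen for their r to EPCAM, and any 2 of the 150 correlated at 0.905 in the median. The same genes had 66 other probe sets on the array, of which 59, of 40 genes, passed the filter. Of these 31 were candidates that the choice ranked and did not take, which caps their r, and 28 had a log2 range under 1 and were never ranked. All were measured on the same RNA. Of the 59, 38 (64.4%) were highest in Chinese Erhualian sow 1, against 23.5% of all tested probe sets, and 25 (42.4%) were lowest in Large White sow 1, against 18.9%. Their median r to EPCAM was 0.79, against -0.03 for all tested probe sets, and 27 had an r of 0.8 or more (45.8%, against 7.63% of all). Over the 5 sows other than Chinese Erhualian sow 1 the median r was 0.52 and 9 had an r of 0.8 or more (15.3%, against 7.16% of all), and 23 of the 59 were highest in Large White sow 3. Of the 28 that were never ranked, 19 (67.9%) were highest in Chinese Erhualian sow 1, and their median r was 0.72 over 6 sows and 0.45 over the other 5. Among all 11882 tested probe sets with a log2 range under 1, 19.4% were highest in that sow and the median r was -0.09. These shares describe the same 6 sows and add no further animals.

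**Figure D4:**
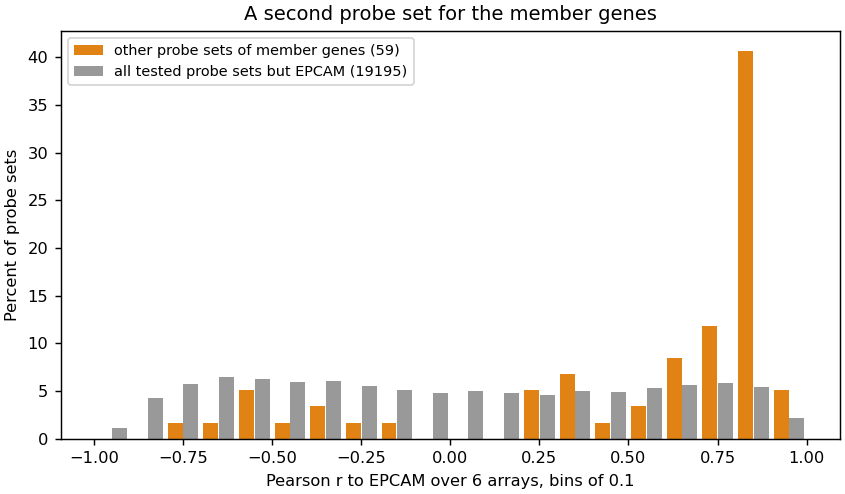
Share of probe sets in percent (vertical) by Pearson r to EPCAM over 6 arrays in bins of 0.1 (horizontal) for the 59 tested other probe sets of member genes (orange) and all tested probe sets other than EPCAM (grey). The orange bars are highest between 0.8 and 0.9, and 10 of the 59 lie below 0.

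The closest of these were OCIAD1 and FZD6. The second OCIAD1 probe set had signals of 3190.1, 2594 and 2342 in Chinese Erhualian sows 1 to 3, against 2011, 2539.7 and 2803 in Large White sows 1 to 3 (r = 0.95), and the second FZD6 probe set had 656, 409 and 438 against 376, 392 and 472 (r = 0.95). Further probe sets of DNAJB6, a chaperone of the heat shock protein family, and SMIM19 had r of 0.91 and 0.89. In these 4 genes the choice was met by a second probe set too, though none of the 4 had a log2 range of 1.

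For 7 genes another probe set ran against EPCAM. VEGFA, the main growth factor of blood vessels, was among the 150 with 1239, 652.5 and 979 in Chinese Erhualian sows 1 to 3, against 548, 654 and 946 in Large White sows 1 to 3, while a second probe set had 479.7, 1088 and 287 against 2682, 500.5 and 245 (r = -0.61). NDUFS3, a subunit of respiratory complex I, was a member at 1020.1, 45.4 and 104 against 33.6, 57.7 and 175, but its brightest probe set had 1659, 3425 and 1303 against 3018, 2615 and 1678 (r = -0.55). One of the TPM1 probe sets (r = -0.55) and further probe sets of NKIRAS1, COQ6, ATP2A2 and DNAJB6 also had an r below 0. Other probe sets outside the 150 had an r above 0 in TPM1 (0.84), COQ6 (0.83), ATP2A2 (0.26) and DNAJB6 (0.67 and 0.91). For such genes the pattern belongs to the probe set, and it was not tested which transcript each one measures.

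The breed difference of the 150 follows from how they were chosen and is given as a description. In all 150 the mean log2 signal was higher in the Chinese Erhualian, by 0.49 in the median and by 0.13 to 2.40 in all, against a median of 0.00 over all tested probe sets. The 3 Chinese Erhualian sows averaged 0.34 ± 0.62 and the 3 Large White sows -0.17 ± 0.43 (SD, n = 3 each) in the median log2 signal of the 150 about each probe set's own median. The SD among sows of a breed was of the same size as the difference between breeds. Without Chinese Erhualian sow 1 the median difference was 0.16, with 117 probe sets higher and 33 lower in the Chinese Erhualian.

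By limma, 2 of the 150 were higher in the Chinese Erhualian at an unadjusted p of 0.05 or less, where 1.56% of all 19196 tested probe sets were, and 0 were lower, against 2.30% of all. After adjustment 0 of the 150 were below 0.05, against 0.0208% of all tested probe sets. For 8 of the 150 every Chinese Erhualian sow lay above every Large White sow, which held for 3.98% of all tested probe sets, and 9.10% had breeds without overlap in either direction. Nothing is read from these counts, since the same arrays chose the set. The 2 at an unadjusted p of 0.05 or less were CTNNAL1, a relative of alpha-catenin, and TMEM87A. CTNNAL1 had 429.8, 249.9 and 217 in Chinese Erhualian sows 1 to 3, against 87.3, 139 and 167 in Large White sows 1 to 3. It was picked from the 150 by these same values, which are given as a description. Of the 59 other probe sets, 0 were at an unadjusted p of 0.05 or less in either direction by limma and 0 after adjustment, and 3 were higher by the methods' t-test at the same unadjusted threshold, against 1.81% of all tested probe sets. Their median log2 difference was 0.21, and 0.04 without Chinese Erhualian sow 1.

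Which probe sets make up the 150 depended on single sows. Chosen again without Chinese Erhualian sow 1, 35 of the 150 were taken, and without Large White sow 1, the lowest in EPCAM, 46. Without any 1 of the other 4 sows 104 to 123 were taken again. The followers of EPCAM also changed in kind. Without Large White sow 1, 20 of the junction, keratin and factor genes and 17 of the ciliary genes were chosen, against 4 and 5 by the rule as given. When r was computed on linear signals, which gives the highest sow the most weight, 21 and 17 were chosen. Without Chinese Erhualian sow 1 these counts were 2 and 0, without Chinese Erhualian sow 2 they were 3 and 3, and without Chinese Erhualian sow 3 they were 3 and 0. Without Large White sow 2 they were 3 and 2, and without Large White sow 3 they were 4 and 4. When the log2 range had to be 2 or more, 15 and 13 were chosen.

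**Figure D5:**
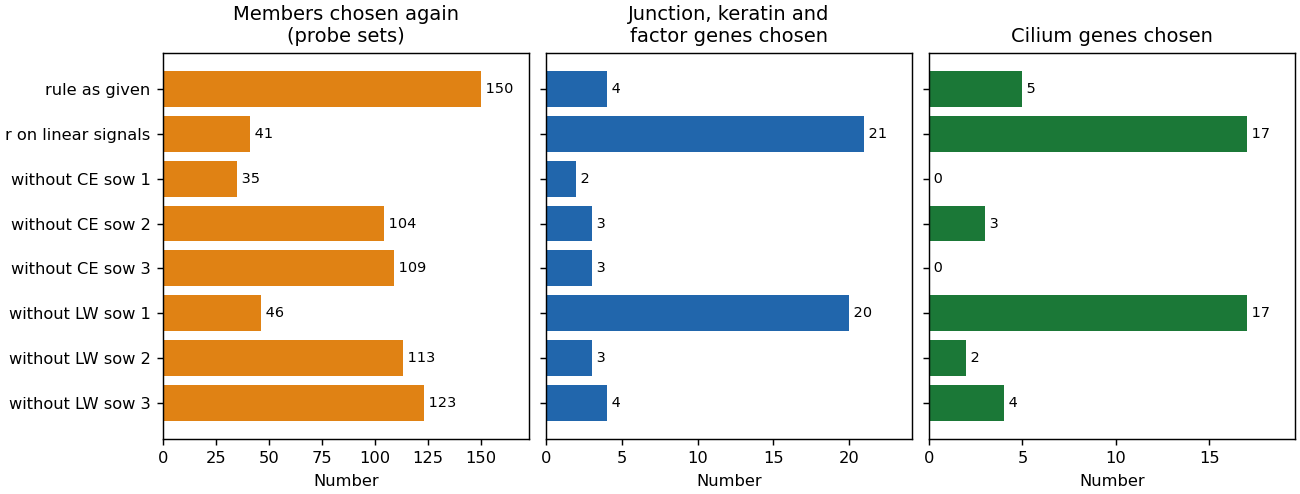
Bars of the number of members chosen again, of junction, keratin and factor genes chosen and of cilium genes chosen (horizontal, from 0) under the rule as given, with r on linear signals and with each sow left out (rows). Leaving out Chinese Erhualian sow 1 or Large White sow 1 removes most members, and epithelial and cilium genes come in on linear signals or without Large White sow 1.

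In the 150 as chosen, r to EPCAM over the 5 sows other than Chinese Erhualian sow 1 was 0.674 to 0.997, with a median of 0.85, and was 0.8 or more in 110 (73.3%), against 8.78% of all candidates. The choice used these 5 arrays, so nothing is read from this share. The lowest were IFT46, MEIS2, IL13RA1, a receptor chain for interleukin 13, and PPL. A core of 11 probe sets, 1 each of 11 genes, was chosen whichever sow was left out. They were SORBS2, GLT8D2, CIR1, TMOD3, which caps actin filaments, CAV1, ISG12(A), ANXA4, LOC100519098, CCDC28A, ANG, angiogenin, a secreted ribonuclease, and CXADR. ANG had the widest range of these, with signals of 5041, 689 and 984 in Chinese Erhualian sows 1 to 3, against 445, 760.1 and 1229 in Large White sows 1 to 3.

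A measure of RNA quality moved with the same sows. The ratio of the 3′ to the 5′ control probe sets of GAPDH, which rises as RNA is degraded, was 1.85, 1.36 and 1.73 in Chinese Erhualian sows 1 to 3, against 1.21, 1.39 and 1.60 in Large White sows 1 to 3. It was highest in the sow with the highest and lowest in the sow with the lowest EPCAM signal. The same ratio for actin was 2.10, 2.66 and 1.96 against 2.13, 1.50 and 1.72, in another order. For EF1A, a further control, it was 0.989, 1.081 and 0.995 against 1.080, 1.011 and 0.984. That ratio was lowest in Large White sow 3 and high in Large White sow 1, so only the GAPDH ratio moved with EPCAM. The part of RNA quality in the pattern of the 150 was not tested. Controls added for the hybridization differed by breed. Relative to their Large White mean, their signal was 1.34, 1.31 and 1.47 in Chinese Erhualian sows 1 to 3. It was 0.940, 0.989 and 1.08 in Large White sows 1 to 3. Whether this array difference has a part in the breed difference of the 150 was not tested.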

How the data were processed

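RNA of preovulatory follicles from 6 sows was hybridized to 6 porcine arrays by the authors, who deposited 1 signal intensity per probe set and array, computed with MAS5 (version 2.3.1 in the submitters' processing notes) and normalized by the invariant set method of dChip, on a linear scale. Arrays were grouped by the breed in the labels. The number of arrays limits the precision, and scaling to a common target would hide any change in total RNA.

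Without the controls, signals were taken to log2 after every value under 1 had been raised to 1. The 19196 probe sets above 50 on 3 or more arrays were tested for breed with limma 3.58.1 (variance trend, 2-sided, Benjamini-Hochberg) in R 4.3.3. The fit was run on simulated data whose spread within breeds was capped, which checks the code and not the power in these sows. An exact permutation test of 3 sows against 3 cannot give a p below 0.1. The rest used Python 3.11.15 with numpy 2.4.6, pandas 2.3.3 and scipy 1.17.1, and matplotlib 3.10.9 for figures. Alternatives were other normalizations, offsets, filters and tests, a replicate block, and each sow left out.

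Symbols came from the platform annotation (10099 probe sets with 1 symbol, 198 with several, 13826 not listed), and 147 of the 150 matched a RefSeq gene of Sscrofa11.1 by gene ID, with 0 changed symbols. The genes named are the 10 of highest r, the 10 of widest range, the 10 brightest, members of the 15 planned gene lists, the 3 on each side of the edge, the 4 highest and 4 lowest other probe sets and the 4 of lowest r without the top sow. All others were chosen after their values were seen, and 2 lists (interferon response and caveola) were added then. The set of 150 and all lists were chosen with earlier results of these data known. Promoter sequences were not analysed here.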

Additional observations from a re-analysis of the deposited data

How the results depend on the processing

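Of the 150 probe sets, 129 were chosen again after quantile normalization, 132 after median scaling, 140 with 16 added before log2, 145 with no filter, 136 at a signal above 100 and 149 when the named genes were left out afterwards, but only 41 with r on linear signals and 48 when the log2 range had to be 2 or more. Leaving out 1 sow gave 35 to 123, lowest without Chinese Erhualian sow 1. The mean of several EPCAM probe sets could not be tried as an anchor, since the array has 1. The median log2 breed difference of 0.49 was 0.47 to 0.51 after other scalings and 0.16 to 0.74 with 1 sow left out, always higher in Chinese Erhualian. The count of members at an unadjusted p of 0.05 or less, 2 by limma, was 5 after quantile normalization, 1 by the methods' t-test and 1 to 14 with 1 sow left out (14 without Chinese Erhualian sow 2). The count of other probe sets at that p, 0 by limma, was 3 by the methods' t-test and 0 to 3 with 1 sow left out. The count of other probe sets highest on the array of the top EPCAM signal, 38, was 33 to 43 under the other settings and 23 to 41 with 1 sow left out, lowest without Chinese Erhualian sow 1. For the gene lists, leaving out each sow was an alternative added after the data were seen. Of the 50 junction, keratin and factor genes, 22 to 42 were then highest in the sow of the top EPCAM signal. The counts were 24 to 41 of the 46 ciliary genes and 14 to 29 of the 38 genes of the interferon list. Each was lowest without Chinese Erhualian sow 1. Over all tested probe sets 4 were below an adjusted p of 0.05, against 0 by the methods' t-test and 2 to 4 with 1 sow left out.

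The labels number the sows 1 to 3 in each breed, but sows of the same number do not come from 1 animal, and their deviations from the breed means correlated at -0.17, -0.14 and 0.27, so the numbers were not taken as pairs. With the replicate block 1 member was at an unadjusted p of 0.05 or less, 0 of the other probe sets were, the median difference was 0.49, and 0 of all tested probe sets were below an adjusted p of 0.05.

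For 59 named probe sets, 531 log2 breed differences were computed under 9 alternatives. Under another normalization or offset, 0 moved by more than the spread between sows. With so few sows per breed, leaving out a sow cannot move a difference by that much, whatever the signals. For those alternatives the comparison with the spread cannot tell whether a difference is stable, and nothing is read from it. The sign changed in 18 of the 531 differences, of which 12 were without Chinese Erhualian sow 1 and 0 under another normalization or offset.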

Other observations

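A smaller number of transcripts ran opposite to EPCAM. Of the 3472 candidates, 69 ran opposite to EPCAM at least as closely as the 150 followed it. The 20 lowest, of 19 genes, were all highest in Large White sow 1 and all lowest in Chinese Erhualian sow 1, and 2 of them held the full reverse order of EPCAM. Their r over the other 5 sows was -0.99 to -0.82. Like the followers they were chosen by their values. MED16, a subunit of the Mediator complex, came closest (r = -0.996), with signals of 119, 181 and 197 in Chinese Erhualian sows 1 to 3, against 262, 202 and 161 in Large White sows 1 to 3. Further genes of the 20 were named after their values were seen. They included RRM2, a subunit of ribonucleotide reductase, at 21.7, 133 and 84.9 in Chinese Erhualian sows against 321, 140.1 and 107 in Large White sows, and MYBL2, a transcription factor of dividing cells, at 159, 309 and 265 against 495, 250.0 and 230.4. EGR1, an immediate early factor that LH induces in follicles, had 106, 323 and 436 in Chinese Erhualian sows against 2497, 402 and 308 in Large White sows, with 1 sow far above the rest. GPI, an enzyme of glycolysis, and PLOD1, which modifies collagen, were at 3252 and 382 in Chinese Erhualian sow 1, against 7611 and 2444 in Large White sow 1.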
